A study of Mus musculus with 5 samples.

Results

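The Hox genes of naïve CD8+ T cells were described here from DNase-seq, which maps chromatin accessibility (ChrAcc) by the cuts that DNase I makes in open chromatin. The members were all genes whose mm9 symbol is Hoxa, Hoxb, Hoxc or Hoxd followed by a number, 39 of 22238 protein-coding symbols, together with the ChrAcc sites whose summit lay in any of the 4 Hox clusters, each taken from its first to its last gene and extended by 20 kb on either side. These 4 windows held 14 of 28472 ChrAcc sites of the wild type (WT) list and 5 of 24363 sites of the list from cells without Tcf1 and Lef1 (dKO). Both groups of mice carried the hCD2-Cre transgene, a driver most active once T cells have matured and left the thymus, and a Rosa26 reporter that turns on GFP in cells where Cre has acted. WT mice kept wild-type Tcf7 (the gene for Tcf1) and Lef1, whereas both genes were floxed in dKO mice, whose genotype is labelled Tcf1-/-Lef1-/-. Mice of both sexes were used at 6 to 12 weeks of age, with no treatment, and GFP+ TCRbeta+ CD62Lhi CD44lo-med CD8+ splenocytes were sorted. There were 3 WT and 2 dKO replicates, but the deposited peaks were called on the pooled replicates, so each genotype gave 1 list, no spread between replicates could be computed, and no difference below was tested.

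Hox genes encode homeodomain transcription factors that give cells their position along the body axis, and their order along each cluster follows the order in which they act, from the anterior (low-numbered) to the posterior (high-numbered) end. In blood, Hoxa and Hoxb genes of the central and posterior groups are known for their part in stem and progenitor cells and for being silenced as cells mature. Polycomb proteins keep the silent clusters compact, trithorax proteins oppose them, and CTCF bound between the genes divides the clusters into separate domains. Tcf1 and Lef1 are related HMG-box factors of T cells that bind DNA at the core ATCAAAG.

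The sequences under the Hox sites fall into sets by the motifs they hold. The first set is the stretch that resembles the core of a CTCF site, read as CCA, any 2 bases, AG, any 2 bases and GGC, which was found with at most 1 mismatch in its 8 fixed letters within 50 bp of the summit at 7 of the 14 WT sites. That share, 50%, stands against 30.6% of all WT sites, and the mismatch was allowed after these sequences were seen. Of the 10 narrow WT Hox sites (140 bp or less), 6 held the stretch (60%), against 50.6% of all WT sites of that width. Each of the 7 is printed from mm9 on the strand of the match, 5′ to 3′, with the 12 bases of the match in capitals and 9 bases on either side:
Hoxa7 upstream start, chr6:52171799-52171828, minus strand: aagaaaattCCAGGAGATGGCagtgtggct
Hoxa10 upstream start, chr6:52190531-52190560, minus strand: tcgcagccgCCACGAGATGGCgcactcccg
Hoxa11 to Hoxa13, chr6:52207111-52207140, plus strand: agcttgtcaACACGAGGTGGCgcccttgat
Hoxb9 to Hoxb8, chr11:96140253-96140282, plus strand: gcacagtggCCGCTAGATGGCatccttgct
Hoxb5 untranslated region, chr11:96164550-96164579, plus strand: cgtcaatcgCCGGGAGGTGGCgcgctctgc
Hoxd9 to Hoxd8, chr2:74540443-74540472, plus strand: cgcatttggCCACTAGAGAGCgctgttgct
Hoxd3 intron, chr2:74553969-74553998, plus strand: gagctttgtCCAGGAGGAGGCgctgtagga

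The second set came from 3 WT sites without such a core, at Hoxa4, Hoxa7 and Hoxb4. Each held an E-box (CACGTG) and a CCAAT box (CCAAT, or ATTGG on the other strand) within 50 bp of the summit. Both motifs are in capitals on the plus strand of mm9:
Hoxa4 promoter, chr6:52141933-52141962: gcccCACGTGctgcgatccggCCAATggga
Hoxa7 promoter, chr6:52167530-52167570: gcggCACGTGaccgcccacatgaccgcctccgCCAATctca
Hoxb4 untranslated region, chr11:96179947-96179975: ggccATTGGctcggaggatCACGTGggcc

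Accessibility was uneven between the Hox clusters, and the dKO list held fewer Hox sites than the WT list. The WT list had 6 sites at Hoxa, 5 at Hoxb, 3 at Hoxd and 0 at Hoxc. The dKO list had 4 at Hoxa, 0 at Hoxb, 1 at Hoxd and 0 at Hoxc. All 14 WT and all 5 dKO sites lay between the first and the last gene of their cluster, and the 20 kb extensions added none. The windows covered 652.0 kb in all. This gave 2.15 WT sites per 100 kb, against 1.07 over the genome, and 0.767 dKO sites per 100 kb, against 0.918 over the genome. In WT cells the density was 4.12 sites per 100 kb at Hoxa, 2.34 at Hoxb and 2.19 at Hoxd.

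The 5 dKO sites each overlapped a WT site, so the lists together held 14 Hox sites, 5 in both lists, 9 in the WT list only and 0 in the dKO list only. The WT-only share was 64.3% of the WT Hox sites (Wilson 95% interval 38.8 to 83.7%, counting error only), while 27.6% of all WT sites had no dKO counterpart. The dKO-only share was 0 of 5, while 14.4% of all dKO sites had no WT counterpart. The lists differed in depth, with 83923734 WT and 62242963 dKO fragments, a ratio of 0.742, and the part of depth in the missing dKO sites was not tested.

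Because fold enrichment over the local background was computed separately in each list, sites were compared by the percentile of fold enrichment within their own list, where 100 is the highest. The median percentile was 45.4 over the 14 WT Hox sites, with a range of 17.8 to 87.7. Over the 5 dKO Hox sites it was 61.6, with a range of 21.0 to 85.6. These medians cover unlike sets, because the 5 dKO sites were all shared and 9 of the 14 WT sites were not. Of the 5 shared sites, 1 ranked higher in dKO. Counting a missing site as 0, the percentile was higher in WT at 13 of the 14 sites and higher in dKO at 1, and 9 of those 13 were the sites that the dKO list lacked.

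**Figure D1:**
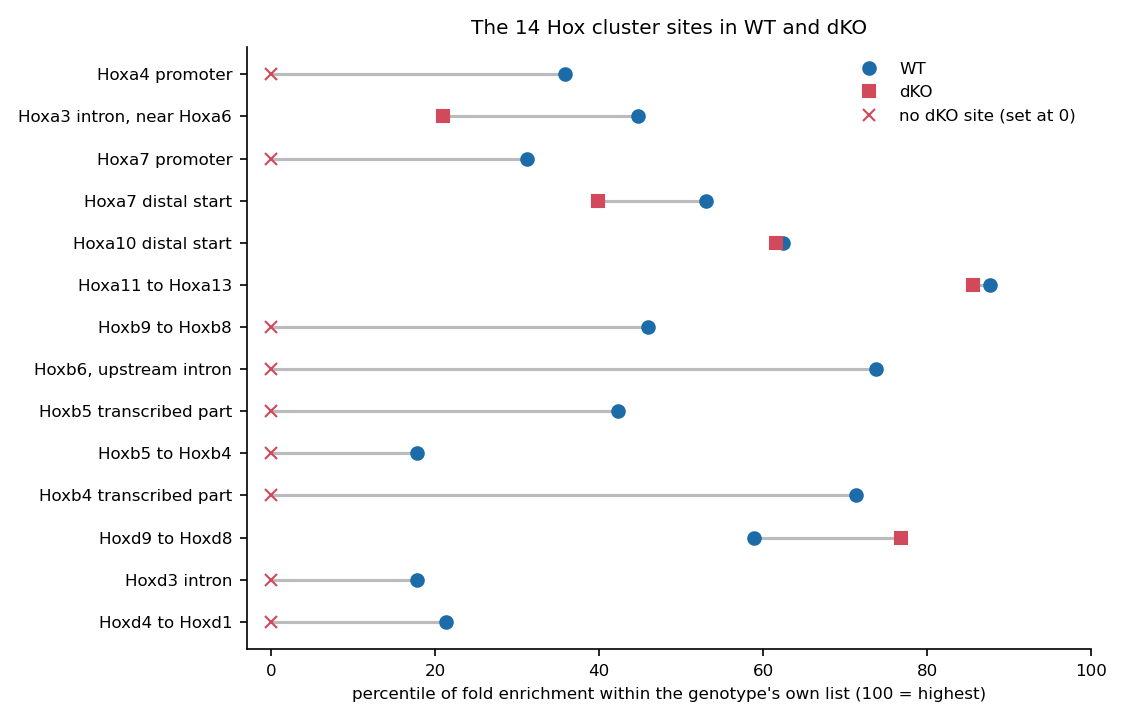
Percentile of fold enrichment of each of the 14 Hox cluster sites within the WT list (circles) and the dKO list (squares), with a cross at 0 where the dKO list had no site. The 5 Hoxb sites all have a cross, and the site between Hoxd9 and Hoxd8 is the only site with the square to the right of the circle.

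The Hoxa cluster, on chromosome 6, was the most open of the 4 and held 4 of the 5 shared sites. Its strongest site lay between Hoxa11 and Hoxa13, which encode posterior factors of limb and urogenital development (chr6:52207073-52207187 in WT), 3.66 kb downstream of the Hoxa13 transcription start site (TSS). Its WT pileup, the number of fragments stacked at the summit, was 104, its fold enrichment 14.3 and its percentile 87.7. The dKO pileup was 60, the fold enrichment 13.5 and the percentile 85.6, so its rank by fold enrichment was nearly the same in both lists. Ranked by pileup, its percentile was 83.7 in WT and 72.2 in dKO.

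The next shared Hoxa site fell in an untranslated region of a longer Hoxa10 transcript (chr6:52190471-52190620). It lay 237 bp from an alternative TSS of this posterior gene, which takes part in uterine and myeloid development. Its percentile was 62.4 in WT (pileup 62, fold enrichment 9.90) and 61.6 in dKO (pileup 40, fold enrichment 9.71). Toward the anterior end, the upstream start of a longer Hoxa7 transcript carried a site in its untranslated region, 60 bp from that TSS (chr6:52171744-52171859). Its percentile was 53.1 in WT (pileup 74) and 39.9 in dKO (pileup 40). Both of these sites held an exact CTCF-like core, shown above.

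The fourth shared site had no such core and lay in intron 1 of Hoxa3, 369 bp from the TSS of a longer Hoxa6 transcript and 1.61 kb downstream of the Hoxa3 TSS (chr6:52161683-52161829). Its WT pileup was 55 and its percentile 44.8. In dKO the pileup was 25 and the percentile 21.0, the widest gap among the shared sites. Along Hoxa, the gap between WT and dKO in the percentile of fold enrichment was thus 2.03 and 0.799 at the Hoxa13 and Hoxa10 sites. It was 13.2 and 23.8 at the Hoxa7 and Hoxa3 to Hoxa6 sites. Ranked by pileup, the Hoxa10 site stood at 54.95 in WT and 44.8 in dKO. By that rank the Hoxa7 site stood at 66.0 and 44.8, and the Hoxa3 to Hoxa6 site at 47.4 and 14.8.

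The other two Hoxa sites were promoter sites of central genes and were found in WT cells only. The Hoxa4 site was centred 194 bp upstream of the TSS, inside intron 2 of a Hoxa3 transcript that spans the gene (chr6:52141904-52142072), with pileup 38, fold enrichment 6.99 and percentile 35.9. The Hoxa7 site was centred 42 bp upstream of the main Hoxa7 TSS (chr6:52167495-52167623), with pileup 56, fold enrichment 6.54 and percentile 31.2. Hoxa7 thus had an upstream start with a site in both lists and a main start with a site in WT cells only.

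The Hoxb cluster, on chromosome 11, had 5 WT sites and 0 dKO sites, and the dKO peaks as deposited, before any threshold, held 0 as well. The 5 sites lay within 39.8 kb, from the gap between Hoxb9 and Hoxb8 to Hoxb4. None was near Hoxb13 at the posterior end, or near Hoxb3, Hoxb2 or Hoxb1 at the anterior end. The strongest lay in an intron of a longer Hoxb6 transcript, 4.25 kb upstream of the main Hoxb6 TSS (chr11:96155965-96156062), with pileup 61, fold enrichment 11.5 and percentile 73.8. Ranked by pileup, its percentile was 53.9. It was 98 bp wide, the narrowest width in the WT list and equal to the fragment size used in the peak calling.

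The second Hoxb site fell in an untranslated region of Hoxb4, a gene known for expanding blood stem cells, 1.96 kb downstream of its TSS (chr11:96179910-96180013). Its pileup was 59, its fold enrichment 11.2 and its percentile 71.4, or 51.7 when ranked by pileup. It held the E-box and CCAAT box printed above. The site between Hoxb9 and Hoxb8 (chr11:96140237-96140335), 2.96 kb upstream of Hoxb8, had pileup 42 and percentile 46.0.

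The site in an untranslated region of Hoxb5, a gene used to mark long-term blood stem cells, was 644 bp downstream of the TSS (chr11:96164509-96164620). Its pileup was 40 and its percentile 42.3. The weakest Hoxb site lay between Hoxb5 and Hoxb4, 4.98 kb upstream of Hoxb4 (chr11:96172986-96173100), with pileup 28 and percentile 17.8. All 5 Hoxb sites were 98 to 115 bp wide, and 3 of them, at Hoxb9 to Hoxb8, Hoxb6 and Hoxb5 to Hoxb4, lay outside annotated exons.

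The Hoxd cluster, on chromosome 2, had 3 WT sites, none of them near Hoxd10 to Hoxd13, the posterior genes of digit and genital development. The site between Hoxd9 and Hoxd8, 2.50 kb upstream of Hoxd8, was in both lists, and it alone ranked higher in dKO. In WT (chr2:74540415-74540512) its pileup was 50, its fold enrichment 9.48 and its percentile 58.9. In dKO its pileup was 49, its fold enrichment 11.8 and its percentile 76.9, from a pool with fewer fragments. Ranked by pileup, its percentile was 40.8 in WT and 59.2 in dKO.

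The other Hoxd sites were weak and in WT only. The site in intron 1 of Hoxd3 lay over an exon of the noncoding gene 1700109F18Rik, 66 bp from its TSS (chr2:74553952-74554056), with pileup 28 and percentile 17.8. The site between Hoxd4 and Hoxd1 lay in an exon of the noncoding gene 6720416L17Rik (chr2:74587340-74587652), with pileup 30 and percentile 21.4, and at 313 bp it was the widest of the Hox sites. There the dKO peaks as deposited held a peak of pileup 15 and fold enrichment 3.79, under the minimum of 4.

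The Hoxc cluster, on chromosome 15, had 9 genes over a window of 155.7 kb and 0 sites in either list. It also had 0 deposited peaks of any strength in either list. The nearest sites outside it were 158.3 kb before the window and 106.6 kb after it, the latter at 84.2 in WT and 99.0 in dKO by percentile. For the other clusters, the nearest outside sites included the promoters of Skap2 (95.6 in WT, 84.3 in dKO), Hibadh (89.7 and 97.5), Atp5g1 (97.3 and 96.0), Lnp (96.4 and 81.2) and Mtx2 (37.1 and 27.9), all in both lists. After Hoxb, the nearest WT site was 50.7 kb beyond the window, at percentile 44.9 and in WT only, and the nearest dKO site was 53.5 kb beyond it, at 99.4 and in both lists, with Skap1 as the nearest gene of each. These neighbours were named after their values were seen.

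Few Hox promoters were open. A site within 1 kb of the main TSS was found for 3 of 39 Hox genes in WT (7.69%, Wilson 95% interval 2.65 to 20.3%), namely Hoxa4, Hoxa7 and Hoxb5, while 42.5% of protein-coding genes had such a site. In dKO it was found for 0 of 39 (interval up to 8.97%), while 39.5% of protein-coding genes had such a site. By paralog group, the 3 genes were among 15 central genes (groups 4 to 8), and 0 of 8 anterior and 0 of 16 posterior genes had a site in either list. With the TSS of any annotated transcript in place of the main TSS, Hoxa6 and Hoxa10 joined these genes in WT (5 of 39, against 45.3% of all genes), and Hoxa6, Hoxa7 and Hoxa10 had a dKO site (3 of 39, against 42.1%).

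The low share was also seen when promoters of similar base composition were compared. Promoters with at least 50% GC and a CpG ratio of at least 0.6 over 500 bp on either side of the TSS were counted as CpG-rich, a type that is open in most cells. Of 10044 CpG-rich promoters in the genome, 73.3% had a WT site and 68.6% a dKO site. Of the 22 CpG-rich Hox promoters, 2 had a WT site (9.09%, interval 2.53 to 27.8%) and 0 a dKO site (interval up to 14.9%). Besides the Hox genes, 32 other annotated genes lay in the windows, most of them noncoding. Of these, 1700109F18Rik and 6720416L17Rik had a WT site within 1 kb of the TSS of any of their transcripts. The microRNA genes of the clusters, Mir10a, Mir10b, Mir196a-1, Mir196a-2, Mir196b and Mir615, had none in either list. No share over all noncoding genes of the genome stands beside these counts, so they are not read as low.

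**Figure D2:**
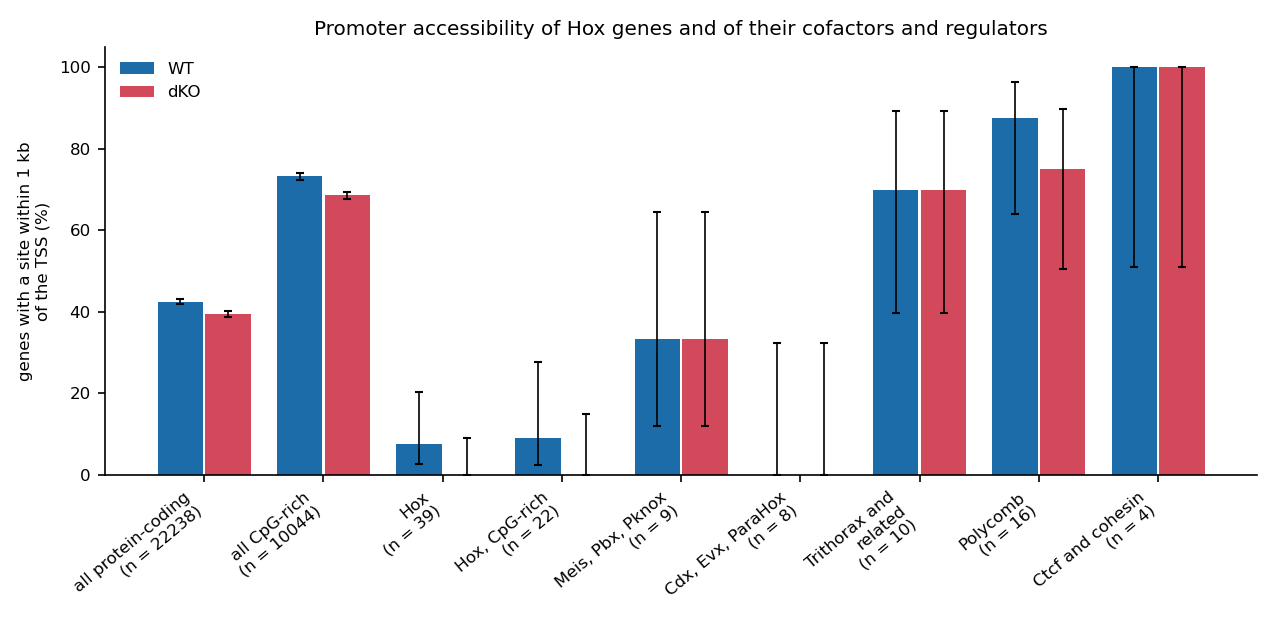
Share of genes with a ChrAcc site within 1 kb of the main TSS (%), for Hox genes, all protein-coding genes and the CpG-rich promoters of each, in WT (blue) and dKO (red). The other bars are the lists of cofactor genes, of ParaHox and Hox-inducing genes, and of chromatin regulators. Bars are shares and lines are Wilson 95% intervals for counting error; Hox genes stand at 7.69% in WT and 0 in dKO.

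Promoter sites were less common among the cofactor, ParaHox and Hox-inducing genes than among the chromatin regulators listed here. Of 9 genes for TALE cofactors, which bind DNA beside Hox proteins, 3 had a promoter site in both lists (33.3%, against 42.5% of all protein-coding genes in WT and 39.5% in dKO), although 7 of the 9 promoters were CpG-rich. These were Pbx3 (percentile 47.1 in WT, 43.5 in dKO), Pbx4 (82.5 and 78.5) and Pknox1 (82.9 and 77.1). Meis1, Meis2 and Meis3 had none in either list. Of 8 ParaHox and Hox-inducing genes (Cdx1, Cdx2, Cdx4, Gsx1, Gsx2, Pdx1, Evx1 and Evx2), 0 had a promoter site in either list.

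Of 16 Polycomb genes, 14 had a promoter site in WT (87.5%) and 12 in dKO (75%). Of their promoters 15 were CpG-rich, a type open at 73.3% in WT and 68.6% in dKO over all genes, so the list stood near that background. Ezh2, the main H3K27 methyltransferase, stood at 91.0 in WT and 90.1 in dKO. Ring1 (15.9) and Cbx2 (33.4) had a site in WT only, and Bmi1 and Pcgf2 had none in either list. Eed and Suz12, the other core subunits of the Ezh2 complex, stood at 73.3 and 76.5 in WT and at 49.9 and 53.0 in dKO. Cbx7 (23.2 in WT, 34.3 in dKO), Phc2 (8.31 and 11.3) and Phc3 (60.1 and 64.6) ranked higher in dKO. The other Polycomb genes with a site in both lists ranked higher in WT.

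Of 10 genes for trithorax proteins, H3K27 demethylases and related activators, 7 had a promoter site in both lists (70%), and 8 of the 10 promoters were CpG-rich, with the same background. The highest in WT was Kdm6a, an H3K27 demethylase (87.5, and 76.3 in dKO), and the highest in dKO was Ash2l, a subunit shared by the MLL complexes (65.0 in WT, 81.2 in dKO). The genes labelled Mll1 and Mll2, which encode H3K4 methyltransferases, and Kdm6b had none in either list. All 4 genes for CTCF and cohesin had a site in both lists. All 4 promoters were CpG-rich, a type open at 73.3% in WT and 68.6% in dKO over all genes. Ctcf itself stood at 50.5 in WT and 43.0 in dKO. The highest of the 4 was Rad21 in WT (92.6) and Smc1a in dKO (98.7), both subunits of cohesin.

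Promoter sites were also counted at marker genes of the sorted cells and of other cell types. A promoter site was found for 8 of 8 CD8+ T cell markers in WT and for 7 of 8 in dKO, where Cd3d had none. None of these 8 promoters was CpG-rich. Over all protein-coding genes without a CpG-rich promoter, 17.2% had a WT site and 15.5% a dKO site. Markers of B cells (5 genes), NK cells (3), CD4+ and regulatory T cells (3) and erythroid or progenitor cells (5) had 0 sites in either list. The progenitor markers Kit and Cd34 were among them. Most of these promoters were not CpG-rich either, so 0 sites in such short lists tell little about cell type. Of the 5 myeloid markers, Itgam had a WT site (34.8), and of the 3 epithelial and stromal markers, Col1a1 had a site in both lists (18.7 in WT, 11.3 in dKO).

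Beyond their place, most Hox sites shared a narrow width. The median width was 115 bp for WT and 121 bp for dKO Hox sites, against 207 and 191 bp for all sites. The smallest width in each list, 98 bp in WT and 97 bp in dKO, equalled the fragment size used in the peak calling. The narrowest 25% of the WT list (140 bp or less) held 10 of the 14 WT Hox sites, and the narrowest 25% of the dKO list (133 bp or less) held 4 of 5. Narrow WT sites lacked a dKO counterpart more often than others over the whole list, with 51.7% of the narrow and 19.5% of the wider sites. Of the Hox sites, 7 of the 10 narrow and 2 of the 4 wider ones lacked a dKO counterpart. The part of width in these counts was not tested.

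**Figure D3:**
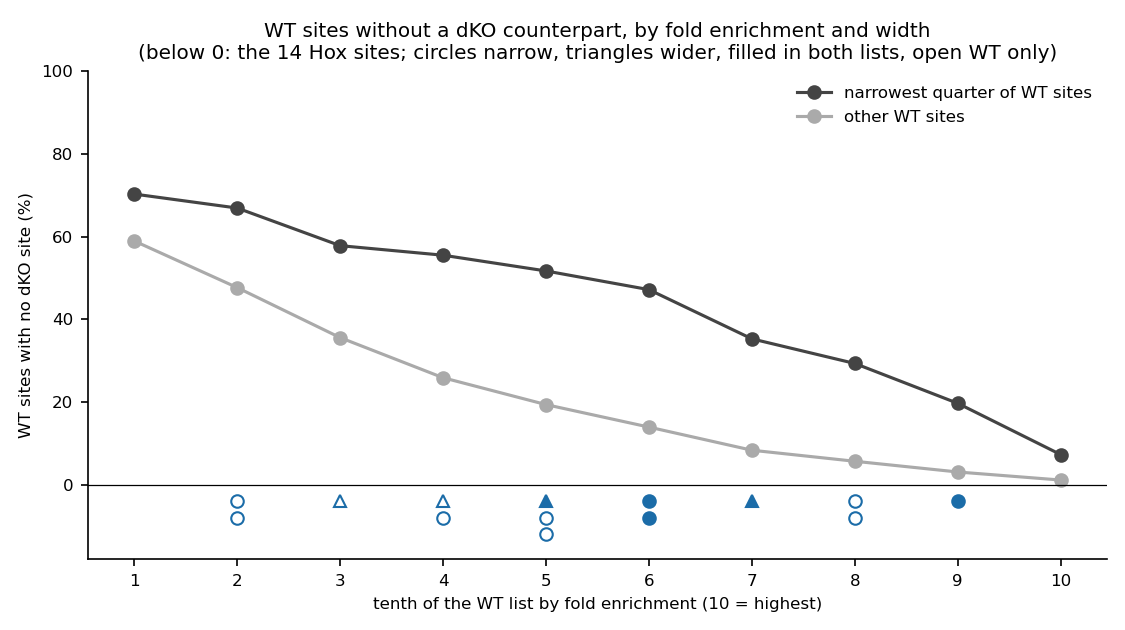
Share of WT sites with no dKO counterpart (%), by the rank of their fold enrichment in 10 bins of equal size, for the narrowest 25% of WT sites (dark) and the other widths (light). Symbols under 0 mark the bin of each of the 14 Hox sites, circles for narrow and triangles for wider ones, filled where the site was in both lists and open where it was in WT only; 7 of the 9 open symbols are circles.

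The CTCF-like core with at most 1 mismatch was within 50 bp of the summit at 7 of 14 WT Hox sites (50%), against 30.6% of all WT sites, and at 3 of the 9 WT-only ones (33.3%). In dKO it was there at 4 of 5 Hox sites (80%), against 29.6% of all dKO sites. Narrow sites held it more often than wider ones over the whole lists, at 50.6% and 24.0% in WT and at 47.9% and 23.5% in dKO. Of the WT Hox sites, 6 of the 10 narrow (60%) and 1 of the 4 wider ones (25%) held it. Of the dKO Hox sites, 4 of the 4 narrow ones and 0 of the 1 wider one held it. Of the 5 shared Hox sites 4 had the core, and of the 9 WT-only sites 3 had it, namely those at Hoxb9 to Hoxb8, Hoxb5 and the Hoxd3 intron. An exact core within 100 bp of the summit was found at 3 of 14 WT Hox sites (11.7% of all WT sites) and at 2 of 5 dKO Hox sites (11.3% of all dKO sites). A match is a description of letters, not evidence of bound CTCF.

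The E-box and CCAAT box pair of the Hoxa4, Hoxa7 and Hoxb4 sites was found, within 50 bp of the summit, at 3 of 14 WT Hox sites and at 0.709% of all WT sites. All 3 were in WT only, and 0 of the 5 dKO Hox sites had the pair, which 0.784% of all dKO sites had. Between the motifs lay 11 bases at Hoxa4, 22 at Hoxa7 and 10 at Hoxb4. The pair was searched for because it was noticed in these sequences, so its count among the Hox sites is a description only.

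Each of the other motifs was at 0 to 2 of the 14 WT and at 0 or 1 of the 5 dKO Hox sites. These counts were not tested against the shares over all sites. The Tcf/Lef core ATCAAAG was within 100 bp of the summit, on either strand, at 0 of 14 WT and 0 of 5 dKO Hox sites, and at 3.81% of all WT and 2.42% of all dKO sites. The Ets motif CCGGAAG was at 0 of 14 and 0 of 5, and at 9.0% and 9.71% of all sites. The Runx motif TGTGGT was at 1 of 14 and 1 of 5, and at 21.8% and 23.2% of all sites. The Hox and Pbx motif TGATNNAT was at 2 of 14 WT Hox sites, the Hoxa4 and Hoxa7 promoters, and at 3.91% of all WT sites, and at 0 of 5 dKO Hox sites against 3.88% of all dKO sites. No match says only that these letters were not in these windows.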

How the data were processed

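DNase-seq was done on sorted naïve CD8+ T cells, 300000 cells per replicate, with a 5 min digestion (DNase I, 2.4 units). Per the submitters' processing notes and the study's methods, the authors aligned reads to mm9 with Bowtie2 2.2.5, kept those of MAPQ over 10, and called peaks with MACS2 2.1.1 on the pooled replicates (3 WT, 2 dKO) without a control. The command in each file header names 2 alignment files of the same pool, and at most 1 fragment per position was kept. In the deposited lists the pileup is a signal in fragments, the ratio is fold enrichment over the local background, and p and q are given by the authors as −log10 values. Of 31116 WT and 25525 dKO deposited peaks, 28472 and 24363 passed the study's criteria (fold enrichment of at least 4, p under 1e-05, q under 0.05) and were taken as ChrAcc sites.

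Sites of the lists were matched by an overlap of at least 1 bp. TSS were taken from the GENCODE vM1 annotation of the same build, as the start of the transcript numbered 001, or of the longest transcript where there was none (main TSS). Motifs were sought on both strands. All Hox sites and all Hox genes with a site were named, along with the genes of each list that lacked a site and the highest of each list. Pbx3, Pbx4, Eed, Suz12, Cbx7, Phc2, Phc3 and Ctcf were added after their values were seen. A few items are not reported here. The members, lists and motifs were chosen with earlier results of these data known. Each list is 1 pooled sample, so no test was run; Wilson 95% intervals cover counting error only. All steps were run in Python 3.11.15 with pandas 2.3.3 and pysam 0.24.0, and were tested on simulated data.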

Additional observations from a re-analysis of the deposited data

How the results depend on the processing

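No paired analysis was possible because each genotype has 1 pooled list, and for the same reason no replicate could be left out. A minimum fold enrichment of 8 moved 7 of 16 main results and left 9 in place. It gave 6 WT and 3 dKO Hox sites, and 3 WT sites with no dKO counterpart (25.9% over the whole WT list). The density was 0.920 WT sites per 100 kb, and 0 Hox promoters had a WT site. The CTCF-like core with up to 1 mismatch was at 4 WT Hox sites, and the exact core at 1 dKO Hox site. The whole lists then held 15324 WT and 13342 dKO sites. The genome density and the promoter and core shares above are for a minimum of 4, so they are no background for these values. With windows extended by 100 kb, the counts were 20 WT and 10 dKO sites, and the Hoxb window then held 9 WT and 3 dKO sites in place of 5 and 0. With 2 kb around the TSS, 5 Hox genes had a WT site and 1 a dKO site, and with the TSS of any transcript 5 and 3. Ranked by −log10 p, the median percentile was 43.3 for WT and 51.8 for dKO Hox sites, and ranked by pileup 44.1 and 44.8. At equal list sizes (20000 highest −log10 p) 6 of 10 WT Hox sites had no dKO counterpart, against 19.7% over the list. At that size 0 of 4 dKO Hox sites had no WT counterpart, against 18.9% over the dKO list. The WT-only count was 9 of 15 with the lists as deposited (30.1% over the list) and 9 of 14 with a q under 1e-10 (29.8%). It was also 9 with an overlap of 50% and with a gap of up to 100 bp. Of 78 alternative values of the main counts, 67 stayed within 1.5 times of the value reported and 11 did not. Of 14 alternative densities and median percentiles, 9 stayed within the 95% counting interval of the value reported and 5 did not.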
